A study of Rattus norvegicus with 9 samples.

Results

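The genes described here encode the initiation and elongation factors of cytosolic translation in rat kidney, the proteins that bring ribosomes to an mRNA, find its start codon and then feed aminoacyl-tRNAs to the ribosome. They were taken by name from the deposited table of FPKM values (fragments per length of transcript and depth of library): every gene whose symbol begins with Eif1 to Eif6, Eef1 or Eef2, leaving out the eIF4E-binding proteins. That gave 59 of the 11235 genes in the table, of which 2 carry pseudogene names (Eif4g1-ps1 and Eif5-ps1). All 59 were at 1 FPKM or more in each of the 9 libraries and had enough reads to be tested. No gene in the table was below 1 FPKM in more than 1 library. Factors that the table does not list by name, among them Eef1a2, Eef1d, Eif4b and Eif4e2, were not analysed here.

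The study compared 3 groups of 3 poly(A) RNA-seq libraries, all from wild-type Sprague-Dawley rats of 6 to 8 weeks and 200 to 220 g, and all labelled batch 1. Sham kidneys came from sham-operated rats, I/R kidneys had the left renal artery closed for 45 min and then reopened (ischaemia and reperfusion), and I/R + rapamycin kidneys (from here on also the rapamycin group) had the same injury in rats given rapamycin, an inhibitor of mTOR complex 1. The labels conflict on the treatment: one text gives males, injection into the peritoneum and 1 mg/kg per day, and another gives both sexes, a stomach tube from 1 day before surgery, 1 or 2 mg/kg per day, 3 or 7 days of reperfusion and 6 groups. Which of these the sequenced kidneys received is therefore unknown, and nothing states that the 3 libraries of a group came from 3 animals, so p-values measure the spread between libraries, which may be technical.

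Translation starts when eIF2 carries the initiator tRNA to the small ribosomal subunit, together with eIF1, eIF1A, eIF5 and the many-subunit eIF3, and when eIF4F (the cap-binding eIF4E, the scaffold eIF4G and the helicase eIF4A) recruits this complex to the capped mRNA. eEF1A then delivers aminoacyl-tRNAs, its exchange factor eEF1B recharges it with GTP, and eEF2 moves the ribosome along. In kidney, ischaemia is known to raise the phosphorylation of eIF2, which slows initiation. The kinases that phosphorylate eIF2 act on the protein after it is made. The mTOR complex 1 that rapamycin inhibits acts on translation, that of some of these mRNAs included, as described below. The values here are mRNA levels, which measure neither factor protein nor its phosphorylation nor translation, and in whole tissue fewer cells of a type and less RNA per cell cannot be told apart.

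Total counts ranged from 44582251 to 60538627 per library. The labels name both kidney and renal tubular cell as the source. The 8 proximal tubule markers listed summed to 8891 to 11786 counts scaled to library size (CPM) in sham, 9681 to 11287 in I/R and 8117 to 10038 with rapamycin. Markers of cells outside the tubule were present too: 5 of 5 podocyte markers summed to 686 to 702 CPM in sham, 452 to 636 in I/R and 423 to 593 with rapamycin. The 4 erythrocyte genes measured of 7 listed summed to 432 to 2762, 1421 to 3547 and 252 to 719.6 CPM in the same order, and 7 of 9 leukocyte genes to 806 to 1001, 796 to 847 and 783 to 1088 CPM. None of the skeletal muscle, nerve or adrenal markers listed was in the FPKM table. The 8 of 8 collecting duct markers in the table summed to 933 to 979 CPM in sham, 792 to 846 in I/R and 779 to 954 with rapamycin. The podocyte sum was lower in all 6 injured libraries than in all 3 sham libraries. The collecting duct sum was lower in all 3 I/R libraries than in sham, and with rapamycin it reached the sham range in rapamycin 1. The 4 of 4 thick ascending limb markers summed to 2763, 2524 and 2688 CPM in the sham libraries. They summed to 2294, 2931 and 4299 CPM in I/R and to 4727, 3018 and 2391 with rapamycin. I/R 1 and rapamycin 3 were thus the lowest of their groups. The median log2 CPM of the 59 genes, relative to the mean of 9 libraries, was lowest there too, at -0.17 and -0.08. The part of any of these markers in the differences below was not tested.

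Levels of different genes are compared here in FPKM, which is per transcript length. Eef1a1, the GTPase that delivers aminoacyl-tRNAs, stood far above the rest, with 1685, 1735 and 2055 FPKM in the sham libraries, 1367, 1559 and 1659 in I/R and 1334, 1374 and 1284 with rapamycin. Eef2, the translocation factor, followed with 345, 330.2 and 449.8 FPKM in the sham libraries, 304, 375 and 400.3 in I/R and 336, 353 and 289 with rapamycin, and the lowest Eef1a1 value exceeded the highest Eef2 value. Eif5a, whose hypusine-bearing protein relieves ribosomes stalled on stretches such as polyproline, gave 249.8, 252 and 224 FPKM in the sham libraries, 214, 253 and 237 in I/R and 272, 272 and 252 with rapamycin. The ranges of these 3 most abundant members over the 9 libraries did not overlap one another.

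The next places were taken by Eif4g2, Eif1 and Eif4a1. Eif4g2, an eIF4G relative that cannot bind eIF4E, had 182, 158 and 205 FPKM in the sham libraries, 213, 169 and 195 in I/R and 178, 173 and 204 with rapamycin. Eif1, which guards start codon choice, had 155, 159.6 and 134 FPKM in the sham libraries, 136, 144 and 156 in I/R and 169, 142 and 159 with rapamycin. Eif4a1, the helicase subunit of eIF4F, had 127, 129 and 123 FPKM in the sham libraries, 109, 124 and 133 in I/R and 131, 132 and 118 with rapamycin. Eif5a was above Eif4g2 by less than 1 FPKM at the nearest pair of libraries (214 and 213), Eif4g2 and Eif1 overlapped, and the ranges of Eif1 and Eif4a1 met at 134 and 133 FPKM. Counting Eef1g and Eif4a2, 8 members had a mean over 100 FPKM, and 9 had a mean under 5 FPKM, the lowest being Eif5a2 at 1.66. Together the 59 genes held 1.23 ± 0.069% of all counts in sham, 1.12 ± 0.077% in I/R and 1.08 ± 0.027% with rapamycin (SD, n = 3 each). This share is weighted by the most abundant genes. The elongation factor group (Eef1a1, Eef1b2, Eef1e1, Eef1g and Eef2) alone held 0.592 ± 0.064%, 0.510 ± 0.056% and 0.463 ± 0.025% in the same order.

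**Figure D1:**
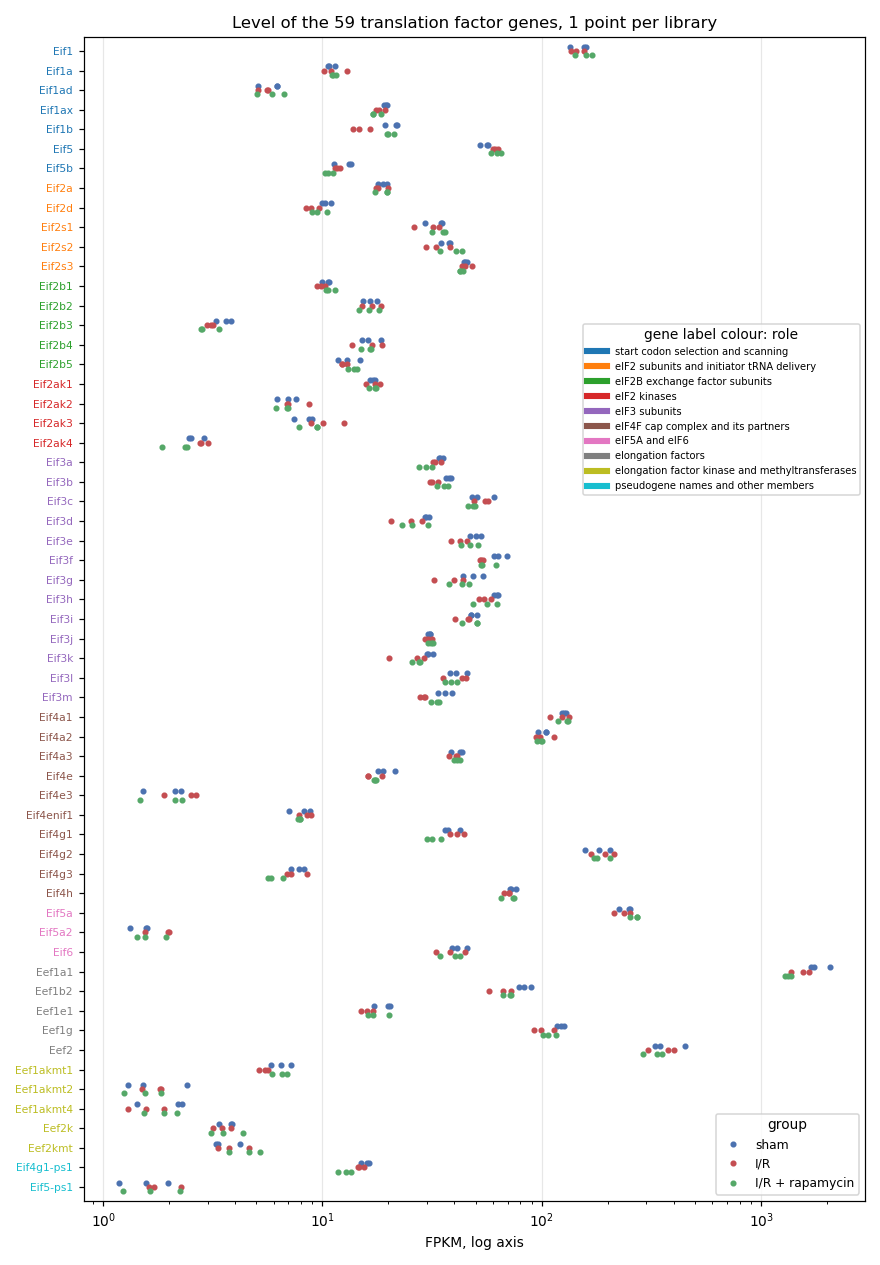
FPKM on a log axis for each of the 59 genes, 1 point per library, coloured by group, with gene labels coloured by role. Eef1a1 lies alone on the right between 1284 and 2055 FPKM, the eIF3 subunits lie between 20.03 and 69.5, and the points of 1 gene lie close together compared with the distance between genes.

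No factor gene passed the test in any of the 3 comparisons. By the quasi-likelihood test of edgeR, adjusted after Benjamini and Hochberg over the 17335 genes tested, 0 of 59 members were called in I/R against sham, where 0.0577% of all genes were. For rapamycin against I/R 0 of 59 were called, beside 0.127% of all genes, and for rapamycin against sham 0 of 59, beside 0.156%. The 3 comparisons share their libraries in pairs, so they are not separate evidence. DESeq2, which called more genes in each comparison, called Eif1b and Eif3m in I/R against sham, Eif1b for rapamycin against I/R, and Eef1a1 and Eif4g3 for rapamycin against sham.

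Below that threshold, most members were fitted lower after injury. In I/R against sham, 46 of 59 members had a fitted log2 fold change below 0, compared with 49.3% of all genes tested and 52.3% of those in the FPKM table, and their median was -0.10 where that of all genes was 0.00. At an unadjusted p under 0.05, 11 members were lower (background 4.59%, and 5.64% in the FPKM table) and 0 were higher (4.83%). All 3 I/R values lay below all 3 sham values for 18 members (background 7.19%, and 8.27% in the FPKM table) and above them for 1, Eif5 (background 7.42%). Members share libraries and many are parts of the same complexes, so these counts describe the list and are not a test of it. I/R 1 was the lowest of the 9 libraries for 29 of the 59 genes. The count of 11 lower members became 4 without I/R 1, 4 without sham 2 and 5 without I/R 1 and sham 3 together, and the 46 fitted below 0 became 39, 44 and 36.

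Against I/R, the rapamycin libraries had members on both sides. For rapamycin against I/R, 41 of 59 were fitted above 0 (background 50.8%, and 54.4% in the FPKM table). Their median was 0.10, against 0.01 for all genes and 0.03 for those in the FPKM table. At an unadjusted p under 0.05, 4 were higher (background 7.12%, and 9.83% in the FPKM table) and 3 lower (9.14% and 9.74%). Without overlap, 7 members were above (background 11.8%, and 14.9% in the FPKM table) and 3 below (12.8% and 13.1%). The counts at an unadjusted p moved with the choice of libraries and scaling. The 4 higher members became 10 without rapamycin 3, 2 without rapamycin 1, and 1 without I/R 1 or without rapamycin 2, and with upper-quartile scaling they were 9. For rapamycin against sham the median was -0.01, with 26 members above 0 and 33 below (background 49.8% below, and 48.4% in the FPKM table). There 1 was higher and 4 were lower at an unadjusted p under 0.05 (background 6.06% and 7.76%, and 7.16% and 7.92% in the FPKM table). Without overlap, 2 lay above and 7 below (9.69% and 9.65%, and 10.3% and 9.63% in the FPKM table).

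**Figure D2:**
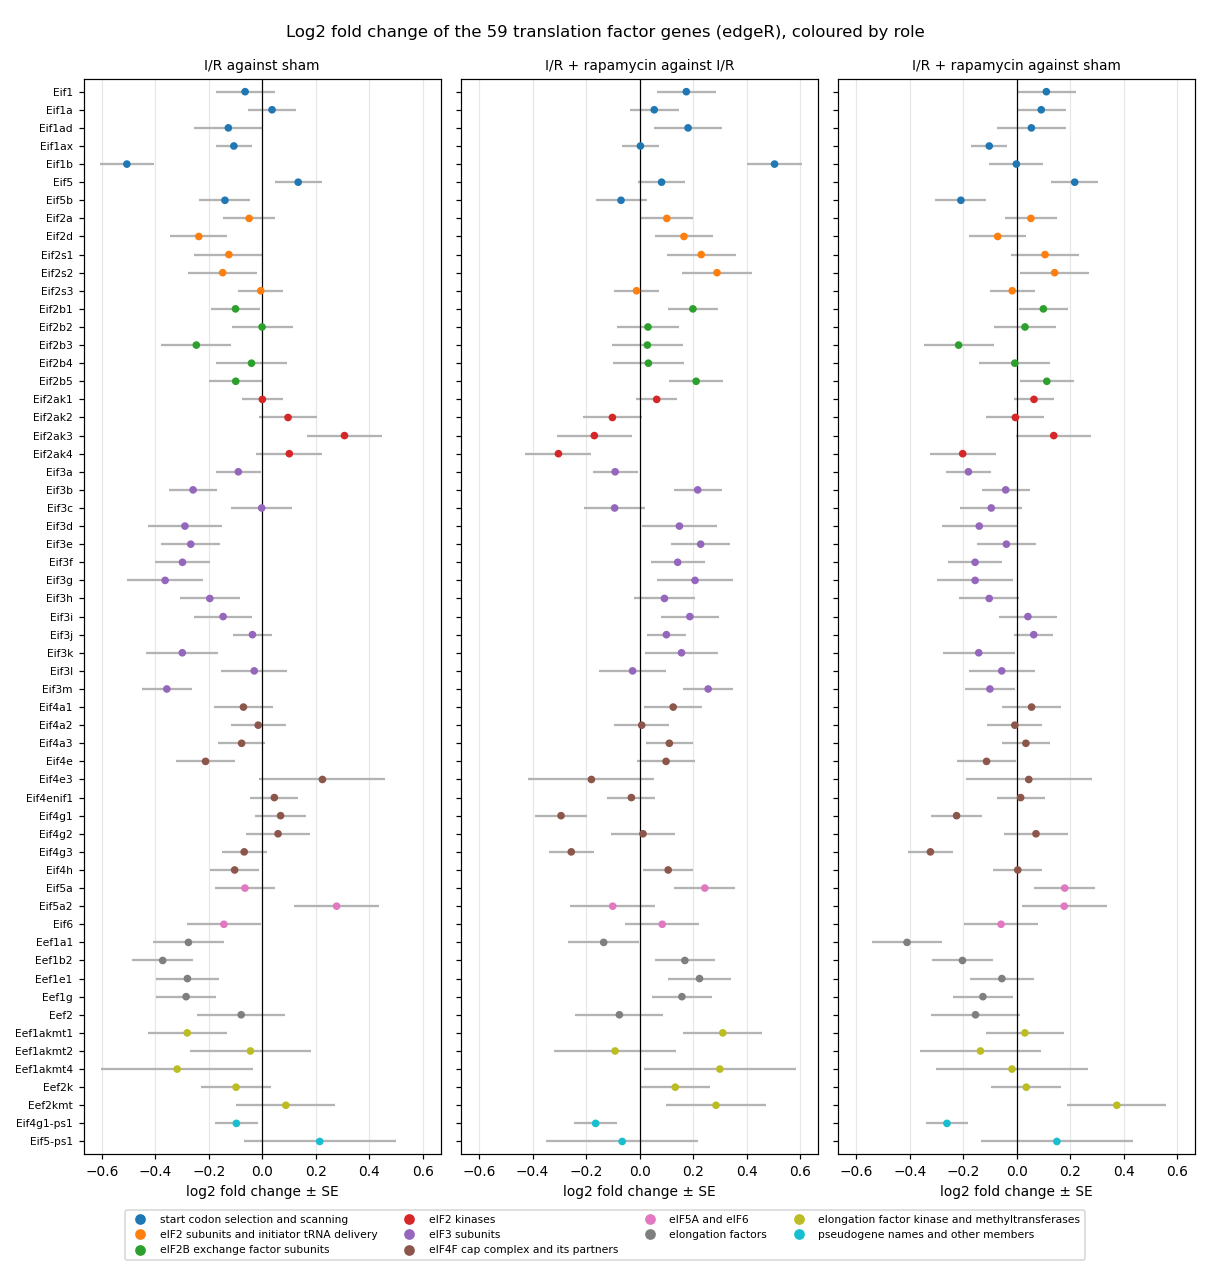
Fitted log2 fold change (horizontal axis) with its standard error for each of the 59 genes in the 3 comparisons, coloured by role. In the left panel Eif1b lies farthest to the left at -0.51 and the eIF3 and elongation factor genes lie at or left of 0, while no gene in any panel passed the test.

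Eif1b, a close relative of Eif1 whose protein is thought to share its role in start codon selection, had the smallest p of all members in both comparisons with I/R. Eif1b gave 40.02, 43.2 and 37.1 CPM in the sham libraries, 25.2, 28.99 and 30.5 in I/R and 39.5, 42.7 and 38.1 with rapamycin. The 3 I/R values lay below all 6 others, and the sham and rapamycin libraries covered the same range. The gene (ENSRNOG00000018848) is on chromosome 8. Its log2 fold change was -0.51 ± 0.10 (SE, with unadjusted p = 0.000459 and adjusted p = 0.185) in I/R against sham and 0.50 ± 0.10 (SE, with unadjusted p = 0.000473 and adjusted p = 0.0918) for rapamycin against I/R, a pair of comparisons that share the I/R libraries, and -0.00 ± 0.10 (SE, with adjusted p = 0.996) for rapamycin against sham. DESeq2 gave adjusted p = 0.00376 and 0.00204 for the first pair. Over all alternatives with a test the adjusted p ran from 0.00376 to 0.491 in I/R against sham and from 0.00204 to 0.296 for rapamycin against I/R. With any 1 library left out the log2 fold change ran from -0.57 to -0.43 in the first and from 0.43 to 0.56 in the second.

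Eif1 itself gave 308, 337 and 276 CPM in the sham libraries, 267, 303 and 310.2 in I/R and 361, 306 and 327 with rapamycin. Its sham and I/R libraries overlapped, with a log2 fold change of -0.06 ± 0.11 (SE, with adjusted p = 0.903). The ratio of Eif1b to Eif1 in FPKM, which does not move with the scaling of a library, was 0.139, 0.137 and 0.144 in sham, 0.101, 0.102 and 0.105 in I/R and 0.117, 0.149 and 0.125 with rapamycin. It was 0.140 ± 0.0035 in sham, 0.103 ± 0.002 in I/R and 0.130 ± 0.017 with rapamycin (SD, n = 3 each). An exact two-sided permutation test gave p = 0.1 for I/R against sham and for rapamycin against I/R, the smallest that 3 against 3 allows, and 0.45 after adjustment over the 18 comparisons of 6 such ratios.

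**Figure D3:**
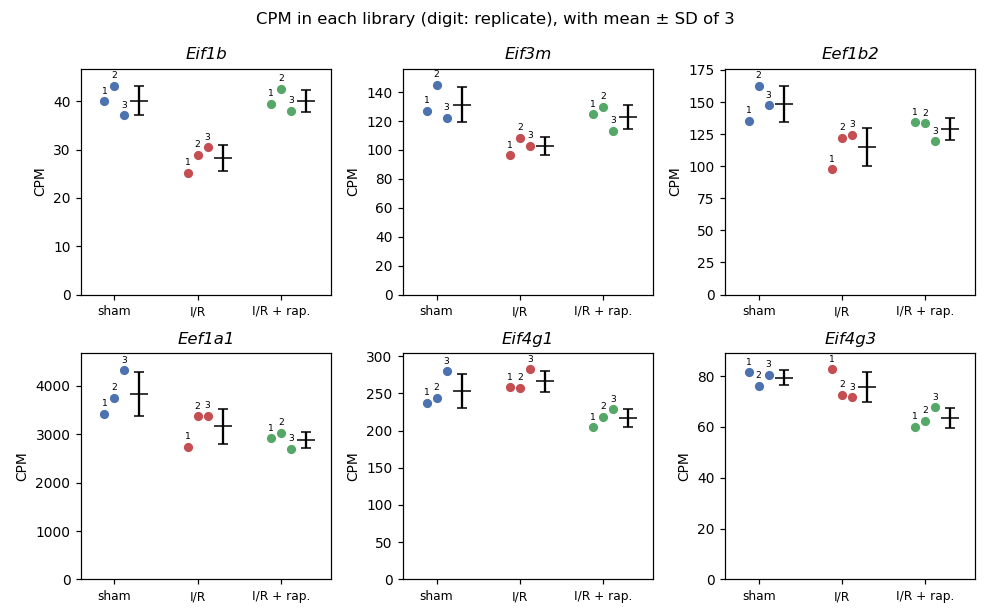
CPM (vertical axis from 0) of 6 members in each library, the digit giving the replicate, with the mean and SD of each group of 3 beside the points. Eif1b lies lower in the 3 I/R libraries than in the other 6, and Eif4g1 and Eif4g3 lie lower in the 3 rapamycin libraries than in the other 6.

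The upstream DNA of Eif1b is shown because this gene had the smallest p of all members after injury and a motif that several other members share. RefSeq's table for the build GRCr8 holds a window from 250 bases before to 50 after the annotated start for 54 of the 59 members. In the 250 bases before the Eif1b start (chr8:129080908-129081157, plus strand, 5′ to 3′), the capitals mark CCGGAAGT, the letters read by ETS factors such as GABPA, and CACGTG, an E-box read by the MYC and MITF/TFE families.
Eif1b: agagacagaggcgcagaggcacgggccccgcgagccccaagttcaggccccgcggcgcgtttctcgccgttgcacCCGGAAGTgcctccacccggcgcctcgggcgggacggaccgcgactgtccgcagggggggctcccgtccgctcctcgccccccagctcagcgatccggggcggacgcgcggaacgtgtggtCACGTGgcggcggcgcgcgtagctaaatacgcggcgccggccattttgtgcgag
CACGTG, which reads the same on both strands, was found in the upstream part of 11 of 54 member windows (20.4%), of 5.59% of all 33469 windows in the table and of 8.52% of the windows of genes in the FPKM table. CCGGAAGT, searched on both strands, was found in 10 of 54 (18.5%), 3.10% and 7.51% in the same order, and Eif1b and Eif5a2 held both motifs, which do not overlap each other. The E-boxes of the 8 members with one that are described by library are set side by side with 10 bases on each side, each on its gene's strand (Eif1b chr8:129081094-129081119 plus, Eif3b chr12:19334810-19334835 minus, Eif3f chr1:172368993-172369018 plus, Eif4g1 chr11:93746406-93746431 minus, Eef2 chr7:9189299-9189324 minus, Eef2k chr1:184824333-184824358 plus, Eif5a chr10:55143412-55143437 minus, Eif5a2 chr2:113657628-113657653 plus), the capitals marking the motif.
Eif1b: aacgtgtggtCACGTGgcggcggcgc
Eif3b: tcgctgcacgCACGTGgctccgcgct
Eif3f: agatatgggtCACGTGgtacaaattt
Eif4g1: cagtgggtgtCACGTGatggggcgga
Eef2: cccgcgccgtCACGTGacgtgcccaa
Eef2k: ccggggcagcCACGTGagcccgggcg
Eif5a: ggggcggggtCACGTGtgtgcgtcat
Eif5a2: taatccgcagCACGTGgggttgccag
The first base shown lies 64 to 216 bases before the annotated start in these 8, and 64 to 247 bases before it over all 11. The 11 members with CACGTG had a median log2 fold change of -0.10 in I/R against sham and the 43 without it -0.08, and 0.13 and 0.08 for rapamycin against I/R. A match is a description of the letters and says nothing of whether a factor binds there.

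The other start codon genes differed less. Eif5, which makes eIF2 hydrolyse its GTP at the start codon, gave 247, 242 and 253 CPM in the sham libraries, 257, 281 and 276 in I/R and 291, 306 and 265 with rapamycin. It was the only member with all 3 I/R libraries above all 3 sham libraries, and the rapamycin libraries were above sham as well, with log2 fold changes of 0.13 ± 0.09 (SE, with adjusted p = 0.686) and 0.22 ± 0.09 (SE, with adjusted p = 0.318). Eif5b, the GTPase that joins the large ribosomal subunit, gave 57.4, 71.2 and 71.1 CPM in the sham libraries, 57.2, 62.6 and 61.4 in I/R and 55.7, 58.3 and 58.7 with rapamycin. Its sham and rapamycin groups overlapped through sham 1, with a log2 fold change of -0.21 ± 0.10 (SE, with adjusted p = 0.366) for rapamycin against sham. Eif1a, Eif1ax and Eif1ad, the genes named after the scanning factor eIF1A and one eIF1A domain protein, ranged from -0.13 to 0.04 in I/R against sham. Eif1ax was the member that varied least between libraries of a group, with a within-group SD of 0.03 on the log2 CPM scale, beside a median of 0.13 over the members and 0.16 over the genes of the FPKM table. Its log2 fold changes against sham were -0.11 in I/R and -0.10 with rapamycin, and both groups lay below sham without overlap.

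The genes for eIF2 and its exchange factor eIF2B, which reloads eIF2 with GTP, were all fitted slightly below 0 after injury and none passed the test. The eIF2 group held the subunit genes Eif2s1, Eif2s2 and Eif2s3, and also Eif2a and Eif2d, counted with them for initiator tRNA delivery. Its 5 genes had a median log2 fold change of -0.13 in I/R against sham, 0.17 for rapamycin against I/R and 0.05 for rapamycin against sham. With each library left out the first ran from -0.19 to -0.01, nearest to 0 without I/R 1, and the second from 0.09 to 0.23. Among its subunits, Eif2s3 (gamma, which binds the GTP and tRNA) was the steadiest at -0.01 in I/R against sham, beside -0.13 for Eif2s1 (alpha, the subunit phosphorylated in stress) and -0.15 for Eif2s2 (beta). Eif2d, which can deliver tRNA without GTP, was the only one of the 5 lower at an unadjusted p under 0.05, with -0.24 ± 0.11 (SE, with adjusted p = 0.528). All 5 genes had their lowest CPM of the 9 libraries in I/R 1. The 5 eIF2B subunits had medians of -0.10, 0.03 and 0.03 in the 3 comparisons, and Eif2b3, the least abundant at 3.22 FPKM, lay furthest from 0 in I/R against sham with -0.25 ± 0.13 (SE, with adjusted p = 0.604).

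The 4 kinases that phosphorylate eIF2 alpha, and so slow initiation under stress, were fitted at or above 0 in I/R against sham (median 0.10), 0 of 4 called. Eif2ak3 (PERK, activated by unfolded protein in the endoplasmic reticulum) gave 42.4, 38.6 and 45.4 CPM in the sham libraries, 42.6, 52.5 and 61.3 in I/R and 49.5, 49.9 and 39.7 with rapamycin. Its I/R values were spread from the sham level to well above it, with a log2 fold change of 0.31 ± 0.14 (SE, with unadjusted p = 0.0508 and adjusted p = 0.534). Eif2ak4 (GCN2, activated by uncharged tRNA) gave 16.4, 15.2 and 14.4 CPM in the sham libraries, 16.9, 16.7 and 15.7 in I/R and 11.3, 14.8 and 13.8 with rapamycin.

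The 3 rapamycin values of Eif2ak4 lay below the 3 I/R values, with a log2 fold change of -0.30 ± 0.12 (SE, with adjusted p = 0.267), and overlapped sham through rapamycin 2. Eif2ak2 (PKR, activated by double-stranded RNA) gave 31.3, 29.7 and 35.3 CPM in the sham libraries, 38.6, 33.3 and 31.03 in I/R and 33.4, 29.9 and 32.6 with rapamycin. Eif2ak1 (HRI, regulated by haem) gave 62.8, 63.5 and 63.8 CPM in the sham libraries, 62.6, 61.2 and 66.4 in I/R and 68.1, 69.1 and 61.6 with rapamycin. The groups overlapped for both genes, and their log2 fold changes in I/R against sham were 0.10 and 0.00.

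The genes of eIF3 were all fitted below 0 in I/R against sham. eIF3 is the largest initiation factor, a scaffold on the small ribosomal subunit whose core is built of subunits a, c, e, f, h, k, l and m, with b, d, g, i and j attached. In I/R against sham 13 of 13 subunits were fitted below 0, with a median of -0.26, 6 were lower at an unadjusted p under 0.05 (background 4.59%), 8 were below sham without overlap (7.19%) and 0 were called. Their median was 0.15 for rapamycin against I/R and -0.10 for rapamycin against sham.

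The subunit with the smallest p was Eif3m, with 127, 145 and 122 CPM in the sham libraries, 96.4, 108 and 103 in I/R and 125, 129.7 and 113 with rapamycin. All I/R values were below all others, with log2 fold changes of -0.36 ± 0.09 (SE, with unadjusted p = 0.00329 and adjusted p = 0.283) in I/R against sham and 0.26 ± 0.09 (SE, with adjusted p = 0.236) for rapamycin against I/R. For the first of these DESeq2 gave adjusted p = 0.0416, and over all alternatives with a test it ran from 0.0416 to 0.703. Eif3f, a core subunit, gave 82.9, 102 and 89.7 CPM in the sham libraries, 71.4, 79.2 and 72.5 in I/R and 91.1, 78.6 and 76.5 with rapamycin. All its sham values exceeded all its I/R values, with -0.30 ± 0.10 (SE, with adjusted p = 0.401), and its rapamycin values overlapped sham. Eif3b, which carries the subunits g and i, gave 118, 129.8 and 129 CPM in the sham libraries, 98.2, 108 and 109 in I/R and 125, 131 and 111 with rapamycin. Here too the I/R values were the 3 lowest, although I/R 3 and rapamycin 3 were close, with -0.26 ± 0.09 (SE, with adjusted p = 0.405) and, for rapamycin against I/R, 0.22 ± 0.09 (SE, with adjusted p = 0.271).

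The other 3 subunits lower at an unadjusted p under 0.05 were Eif3g at -0.36, Eif3k at -0.30 and Eif3e at -0.27 on the log2 scale, and Eif3d at -0.29 and Eif3h at -0.20 lay below sham without overlap. Eif3c at -0.00, Eif3l at -0.03, Eif3j at -0.04 and Eif3a at -0.09 lay nearest to 0, so members of the core stood at both ends of the range. I/R 1 was the lowest library for 9 of the 13 subunits. The median of the 13 was -0.14 without that library, with 11 of 13 below 0 (likewise 11 without sham 3). With at least 10 CPM in 3 libraries, with limma and with the genes of the FPKM table alone, 12 of 13 were below 0. In the last of these Eif3c was on the other side of 0. The median was -0.21 with the trend on transcript length taken out.

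**Figure D4:**
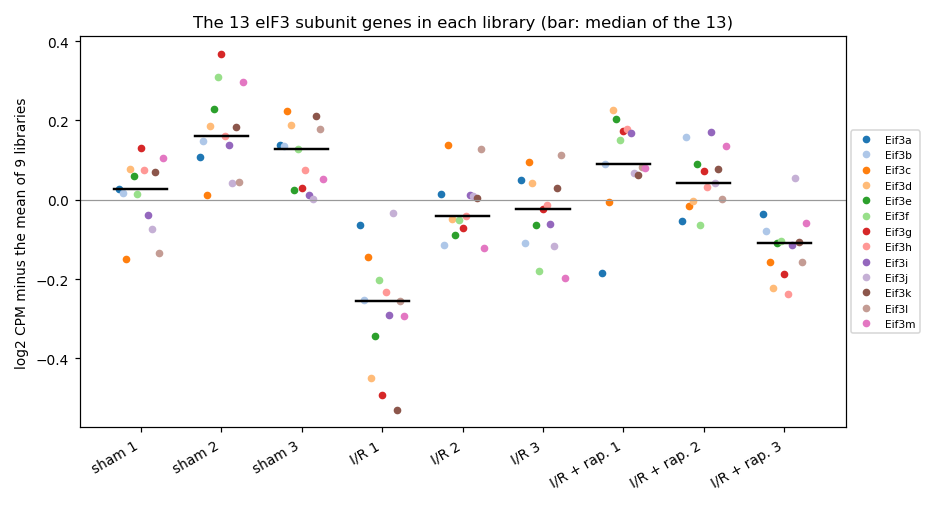
Log2 CPM of each eIF3 subunit gene minus its mean over the 9 libraries (vertical axis), by library, with a bar at the median of the 13. The medians are 0.03, 0.16 and 0.13 in the sham libraries, -0.26, -0.04 and -0.02 in I/R and 0.09, 0.04 and -0.11 with rapamycin, so I/R 1 lies lowest and rapamycin 3 lies below I/R 2 and I/R 3.

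Of the 10 cap complex genes 0 were called, and the smallest p in both comparisons with rapamycin belonged to scaffold genes. The median log2 fold change of the 10 was -0.04 in I/R against sham, 0.01 for rapamycin against I/R and 0.01 for rapamycin against sham. Eif4g1, the main scaffold, which joins eIF4E, eIF4A and eIF3, gave 237, 244 and 279.7 CPM in the sham libraries, 258, 257 and 282 in I/R and 204, 218 and 228 with rapamycin. Its 3 rapamycin values were below all 6 others, with a log2 fold change of -0.29 ± 0.10 (SE, with adjusted p = 0.194) against I/R and -0.23 ± 0.10 (SE, with adjusted p = 0.339) against sham. Eif4g3, another scaffold of the same kind, gave 81.5, 76.1 and 80.5 CPM in the sham libraries, 82.7, 72.7 and 71.7 in I/R and 60.1, 62.5 and 67.7 with rapamycin. Its rapamycin values too were the 3 lowest, with -0.26 ± 0.08 (SE, with adjusted p = 0.201) against I/R and -0.32 ± 0.08 (SE, with adjusted p = 0.167) against sham. For the last value DESeq2 gave adjusted p = 0.0349, and over all alternatives with a test it ran from 0.0349 to 0.459. Both genes have long transcripts, and with the length trend removed the differences from I/R were -0.14 and -0.02, and those from sham -0.15 and -0.20.

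Eif4g2, whose protein initiates without eIF4E, gave 993, 917 and 1159 CPM in the sham libraries, 1150.0, 979 and 1068 in I/R and 1045, 1025 and 1154 with rapamycin. Its groups overlapped in every comparison (log2 fold change 0.01 for rapamycin against I/R). The ratio of Eif4g2 to Eif4g1 in FPKM was 4.89, 4.37 and 4.83 in sham, 5.20, 4.43 and 4.40 in I/R and 5.96, 5.48 and 5.88 with rapamycin. It was 4.69 ± 0.28 in sham, 4.68 ± 0.45 in I/R and 5.77 ± 0.26 with rapamycin (SD, n = 3 each), with all rapamycin values above all others. The exact permutation p was 0.1 against either group, the smallest possible, and 0.45 adjusted. The implied length of Eif4g2 was 5684 bases and that of Eif4g1 6622.

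The groups of Eif4a1, Eif4a2 and Eif4a3 overlapped. In I/R against sham, 1 of the 10 cap complex genes, outside the Eif4a and Eif4g genes, lay below sham without overlap (background 7.19%). Eif4e, which binds the cap, was at 100.4 ± 11.7 CPM in sham, 86.7 ± 10.7 in I/R and 92.8 ± 3.00 with rapamycin (SD, n = 3 each). Eif4a1 gave 247, 267 and 249.9 CPM in the sham libraries, 209, 257 and 262 in I/R and 275, 279.6 and 239.6 with rapamycin, and its paralog Eif4a2, the other eIF4A of the complex, gave 480.3, 511 and 454 CPM in the sham libraries, 426, 479 and 524 in I/R and 496, 473 and 469 with rapamycin. Eif4a2 thus had more counts than Eif4a1 but a longer implied transcript. Eif4a3, a relative that belongs to the exon junction complex rather than eIF4F, gave 77.4, 84.2 and 72.9 CPM in the sham libraries, 68.1, 79.8 and 74.4 in I/R and 83.2, 81.3 and 75.7 with rapamycin. In FPKM the ratio of Eif4a2 to Eif4a1 was 0.829, 0.816 and 0.776 in sham, 0.870, 0.795 and 0.856 in I/R and 0.770, 0.723 and 0.836 with rapamycin, and that of Eif4a3 to Eif4a1 lay between 0.304 and 0.348 in all 9 libraries. Eif4h, which aids the helicase, had log2 fold changes from -0.10 to 0.11 over the 3 comparisons.

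Eif5a and its rare paralog Eif5a2 had groups that overlapped. Eif5a gave 413, 444 and 385 CPM in the sham libraries, 349, 444 and 393 in I/R and 484, 489 and 432 with rapamycin, with the rapamycin group highest by mean but overlapping both others. Its log2 fold change against I/R was 0.24 ± 0.11 (SE, with adjusted p = 0.32). Eif5a2 gave 8.25, 8.86 and 7.25 CPM in the sham libraries, 10.4, 8.67 and 10.5 in I/R and 10.9, 8.14 and 8.47 with rapamycin. Its level per length was under 1 in 100 of that of Eif5a in all 9 libraries, and its log2 fold change in I/R against sham was 0.28 ± 0.16 (SE, with adjusted p = 0.635). Eif6, which keeps the large ribosomal subunit from joining too early, was at 88.3 ± 10.3 CPM in sham, 79.97 ± 12.8 in I/R and 84.8 ± 10.7 with rapamycin (SD, n = 3 each).

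The elongation factor genes were all fitted below 0 against sham with the full set of libraries, in I/R and with rapamycin. The 5 genes had a median log2 fold change of -0.28 in I/R against sham and -0.15 for rapamycin against sham, comparisons that share the sham libraries, and 0.16 for rapamycin against I/R. In I/R against sham 3 of 5 were lower at an unadjusted p under 0.05 (background 4.59%, and 5.64% in the FPKM table) and 0 were called. The 3 were Eef1b2, Eef1g and Eef1e1, the last grouped here by its name, as described below. Without I/R 1 the median was -0.20 with 4 of 5 below 0. With each library left out, the median ran from -0.23 to -0.06 for rapamycin against sham, with 4 of 5 below 0 without rapamycin 3 or without sham 2, and from 0.06 to 0.23 for rapamycin against I/R. With the trend on transcript length removed, Eef1b2, Eef1e1 and Eef1g were at 0.04, 0.07 and 0.13 for rapamycin against I/R. Eef1a1 and Eef2 were at -0.23 and -0.03 there. Eef1a1 gave 3420.1, 3752 and 4325 CPM in the sham libraries, 2743, 3368 and 3382 in I/R and 2916, 3029 and 2704 with rapamycin. All 6 injured libraries were below all 3 sham libraries, and sham 3 was the highest.

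The log2 fold changes of Eef1a1 were -0.28 ± 0.13 (SE, with adjusted p = 0.56) in I/R against sham and -0.41 ± 0.13 (SE, with adjusted p = 0.22) for rapamycin against sham. DESeq2 gave adjusted p = 0.0276 for the second, with a range of 0.0276 to 0.509 over all alternatives with a test. Eef1b2, the exchange factor subunit that reloads eEF1A with GTP, gave 135, 163 and 147 CPM in the sham libraries, 97.6, 122 and 124 in I/R and 134, 133 and 119 with rapamycin. The injured libraries were again below every sham library, with -0.37 ± 0.11 (SE, with adjusted p = 0.331) in I/R against sham and -0.20 ± 0.11 (SE, with adjusted p = 0.464) for rapamycin against sham.

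Eef1g, the scaffold subunit of the same exchange factor, gave 324, 358 and 361 CPM in the sham libraries, 251, 289 and 314 in I/R and 346, 319.7 and 289 with rapamycin. I/R was below sham without overlap, with -0.29 ± 0.11 (SE, with adjusted p = 0.465), while the rapamycin values reached into the sham range. Eef1e1, a partner of the tRNA synthetase complex named for its likeness to the eEF1 subunits, had -0.28 ± 0.12 (SE, with adjusted p = 0.503) in I/R against sham. Eef2 gave 1360.5, 1388 and 1839.9 CPM in the sham libraries, 1185, 1573 and 1586 in I/R and 1426, 1514 and 1182 with rapamycin. Its groups overlapped, the spread within sham alone covering 1360.5 to 1839.9 CPM, with -0.08 ± 0.16 (SE, with adjusted p = 0.923) in I/R against sham. Reads of these genes are less certain than those of most others, because RefSeq lists 20 pseudogene entries named for Eef1a1, 16 for Eef1g and 5 for Eef2, and how the deposited counts treated reads shared by such copies is unknown. The same holds for some initiation factors, with 11 entries for Eif5, 10 for Eif4e, 8 for Eif1 and 8 for Eif4a1.

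Several of these genes belong to the class of 5′ TOP mRNAs, which begin with a cytidine followed by a run of pyrimidines and whose translation depends on mTOR complex 1. Of 10 members taken from textbook knowledge as TOP mRNAs, 8 were in the table (Eef1a1, Eef1b2, Eef1g, Eef2, Eif3a, Eif3e, Eif3f and Eif3h). In I/R against sham 8 of 8 were fitted below 0 (median -0.27, background 49.3%, and 52.3% in the FPKM table). For rapamycin against sham 8 of 8 were too (median -0.16, background 49.8%, and 48.4% in the FPKM table). With 1 library left out, Eef2 reached 0.08 in the first, and Eif3e 0.04 and Eif3h 0.003 in the second. All 8 are also counted among the eIF3 and elongation factor genes above. Between rapamycin and I/R, 5 of 8 were fitted above 0 (background 50.8%, and 54.4% in the FPKM table) and 3 below (median 0.12). In any comparison 0 were called. The start windows of the 6 that have one are shown because the annotated start decides whether a TOP sequence can be seen at all. Each runs from 10 bases before to 15 bases after the RefSeq start in GRCr8, 5′ to 3′ on the gene's strand, and capitals mark a run of at least 5 pyrimidines that begins with C within 5 bases of the start (Eef1a1 chr8:88225055-88225079, minus, Eef1b2 chr9:72074081-72074105, plus, Eif3f chr1:172369052-172369076, plus, Eef1g chr1:215289805-215289829, plus, Eef2 chr7:9189224-9189248, minus, Eif3a chr1:269919011-269919035, minus).
Eef1a1: ttggacgttCTTTTTCgcaacgggt
Eef1b2: ggccggtcccggCCCTTTTTCTCCC
Eif3f: cccttccgttctagCCTCTCTCTTT
Eef1g: ctgcggaatcaccatggcggctggg
Eef2: ccgcagccgccgccatcgtcggcgc
Eif3a: atccggggctcgggcggcggcgctg
A tract was found in Eef1a1, Eef1b2 and Eif3f, and over all members in 16 of 54 windows (29.6%), beside 17.0% of all windows and 17.7% of those of FPKM-table genes. No match says only that these letters are not within 5 bases of the start that RefSeq annotates.

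The 5 genes whose products modify elongation factors together held 0.0049% of all counts in sham, 0.0046% in I/R and 0.0049% with rapamycin, and none was called. Eef2k, the kinase that inhibits eEF2 and is itself restrained through mTOR complex 1, gave 19.8, 18.6 and 20.8 CPM in the sham libraries, 17.9, 17.6 and 19.9 in I/R and 24.2, 17.5 and 18.9 with rapamycin. The groups overlapped, with a log2 fold change of -0.10 ± 0.13 (SE, with adjusted p = 0.862) in I/R against sham and 0.13 ± 0.13 (SE, with adjusted p = 0.655) for rapamycin against I/R. The 4 methyltransferase genes (Eef2kmt, Eef1akmt1, Eef1akmt2 and Eef1akmt4) had log2 fold changes from -0.32 to 0.09 in I/R against sham and from -0.09 to 0.31 for rapamycin against I/R, with 0 called. Eef1akmt4 was at 86 to 149 counts per library.

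Of the pseudogene names, Eif4g1-ps1 gave 82.1, 82.8 and 86.9 CPM in the sham libraries, 75.1, 79.9 and 80.4 in I/R and 65.4, 75.9 and 68.8 with rapamycin. Its rapamycin values overlapped I/R through rapamycin 2 and lay below all sham values, with -0.26 ± 0.08 (SE, with adjusted p = 0.204) against sham and -0.16 ± 0.08 (SE, with adjusted p = 0.338) against I/R. Its name marks it as a copy of Eif4g1, and whether the 2 share reads was not tested. Eif5-ps1 was at 1.71 FPKM on average and was the member with the widest within-group spread, an SD of 0.33 on the log2 CPM scale.

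The fold changes varied with transcript length, among the members and among all genes. Length was implied from the ratio of counts to FPKM, and the median member had 2949 bases, beside 3205 for all genes of the FPKM table. Across the 59 genes, which are not independent, Spearman's rho of fold change and length was 0.44 in I/R against sham, -0.65 for rapamycin against I/R and -0.21 for rapamycin against sham, and over the genes of the table it was 0.30, -0.48 and -0.26. For rapamycin against I/R the 20 members under 2500 bases had a median log2 fold change of 0.18 and the 19 of 4000 bases or more -0.08. With the trend of all genes removed, the median of the members was -0.10 in I/R against sham, 0.06 for rapamycin against I/R and -0.05 for rapamycin against sham. Eif1b kept -0.45 and 0.39 in the first pair and Eif3m -0.37 and 0.28, while Eif3f went from 0.14 to -0.03 for rapamycin against I/R. The labels state a lower limit for RNA integrity and no value per library, so its part in the trend was not tested.

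**Figure D5:**
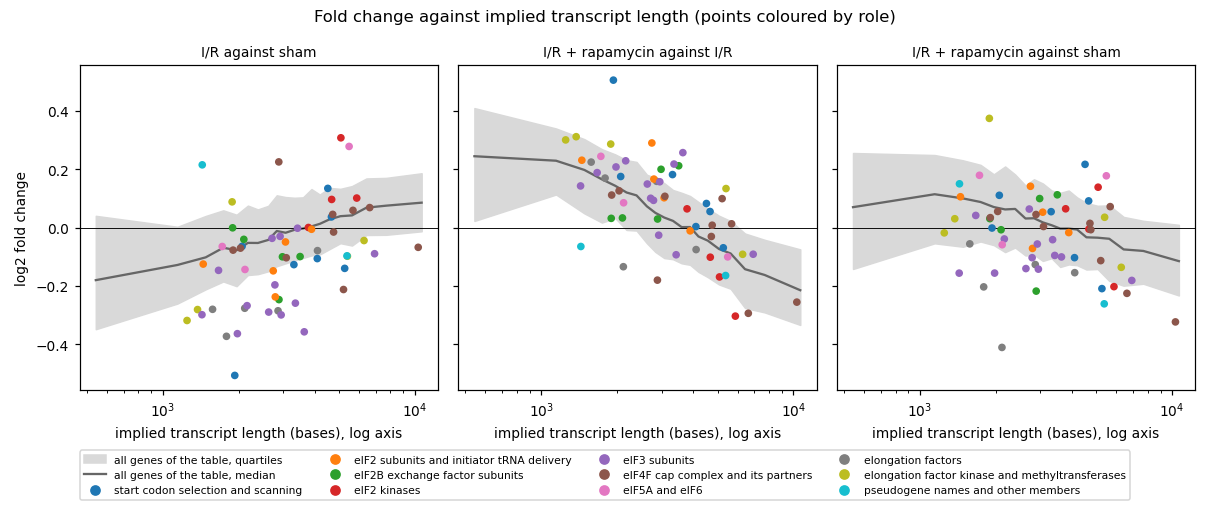
Log2 fold change (vertical axis) against implied transcript length in bases (log axis) for the 59 genes, coloured by role, over the median and quartiles of all genes of the FPKM table in 20 bins of length. In the middle panel the band runs downward from short to long transcripts and the members run the same way, with Eif1b above the band at 0.50.

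Other genes of the pathway were described by list, and none was called in any comparison. At an unadjusted p under 0.05, 4.83% of all genes were higher and 4.59% lower in I/R against sham, 7.12% were higher and 9.14% lower for rapamycin against I/R, and 6.06% were higher and 7.76% lower for rapamycin against sham, and the counts of each list are read against these shares. Among 13 reinitiation, helicase, termination and recycling factors tested of 14 listed, 0 higher and 2 lower passed an unadjusted p under 0.05 in I/R against sham, 1 higher and 0 lower for rapamycin against I/R and 0 higher and 2 lower for rapamycin against sham. Denr, which with Mcts1 restarts ribosomes after short upstream reading frames and has a domain like that of eIF1, gave 19.6, 20.6 and 19.2 FPKM in sham, 16.5, 13.8 and 15.5 in I/R and 20.7, 18.4 and 19.2 with rapamycin. Its I/R values lay below all others, with -0.40 ± 0.09 (SE, with adjusted p = 0.236) in I/R against sham and 0.42 ± 0.09 (SE, with adjusted p = 0.105) for rapamycin against I/R. Eefsec, the elongation factor for selenocysteine, gave 12.96, 14.4 and 13.7 FPKM in sham, 11.01, 9.92 and 11.02 in I/R and 10.01, 10.99 and 11.9 with rapamycin, with all 6 injured values below sham, -0.39 ± 0.09 (SE, with adjusted p = 0.258) in I/R against sham and -0.28 ± 0.09 (SE, with adjusted p = 0.232) for rapamycin against sham. Abcf1, a ribosome-bound ATPase, had 0.15 ± 0.09 (SE, with adjusted p = 0.456) for rapamycin against I/R, and the helicase gene Dhx29 -0.25 ± 0.11 (SE, with adjusted p = 0.349) for rapamycin against sham.

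Among 23 translation repressors and mTOR-linked regulators tested of 24 listed, the counts at an unadjusted p under 0.05 were 1 higher and 2 lower in I/R against sham, 0 higher and 4 lower for rapamycin against I/R and 1 higher and 3 lower for rapamycin against sham. Larp1, which binds and represses TOP mRNAs when mTOR complex 1 is off, gave 15.8, 13.2 and 18.2 FPKM in sham, 15.9, 15.2 and 16.2 in I/R and 10.9, 11.6 and 13.3 with rapamycin. Its rapamycin values lay below all 3 I/R values and overlapped sham through sham 2 in FPKM but not in CPM, with -0.34 ± 0.11 (SE, with adjusted p = 0.191) against I/R and -0.36 ± 0.11 (SE, with adjusted p = 0.204) against sham. Rps6, the ribosomal protein phosphorylated downstream of mTOR complex 1, had -0.40 ± 0.14 (SE, with adjusted p = 0.4) and Ppp1r15b, which helps to remove the phosphate from eIF2, 0.27 ± 0.09 (SE, with adjusted p = 0.39) in I/R against sham, both without overlap between the groups. The eIF4E-binding repressor Eif4ebp3 had -0.25 ± 0.10 (SE, with adjusted p = 0.258) for rapamycin against I/R, and Paip2, which inhibits the poly(A)-binding protein, -0.20 ± 0.07 (SE, with adjusted p = 0.278) for rapamycin against sham.

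The counts were 0 higher and 1 lower, 1 higher and 0 lower and 0 higher and 0 lower in the 3 comparisons for 9 genes of eEF2 and eIF5A modification, led by Dnajc24 at -0.48 ± 0.19 (SE, with adjusted p = 0.459) in I/R against sham and Dph3 at 0.32 ± 0.14 (SE, with adjusted p = 0.291) for rapamycin against I/R, both in diphthamide synthesis on eEF2. Dnajc24 was at 0.36 for rapamycin against I/R, and the eIF5A hypusination genes Dohh and Dhps were at 0.45 and 0.20 for rapamycin against sham, with Dohh at 0.55 in I/R against sham. The same counts were 0 higher and 0 lower, 0 higher and 1 lower and 0 higher and 0 lower for 10 mitochondrial translation factors, led by Gfm2, a ribosome recycling factor, at -0.29 ± 0.12 (SE, with adjusted p = 0.276) for rapamycin against I/R and -0.17 for rapamycin against sham. Tsfm, the exchange factor of the mitochondrial elongation factor Tu, was at -0.20 and 0.18 in the comparisons with I/R, Mtrf1 at -0.16 in I/R against sham and Gfm1 at 0.19 for rapamycin against sham. For 9 integrated stress response targets tested of 11 listed the counts were 0 higher and 1 lower, 0 higher and 0 lower and 1 higher and 1 lower. Sesn2, an inhibitor of mTOR complex 1 signalling, had -0.33 ± 0.10 (SE, with adjusted p = 0.331) in I/R against sham and 0.15 for rapamycin against I/R, and Ddit4, another such inhibitor, 0.57 in I/R against sham. Atf3, a stress transcription factor, gave 6.83, 13.1 and 54.97 FPKM in sham, 3.31, 29.3 and 28.6 in I/R and 3.93, 4.28 and 3.11 with rapamycin. It varied widely within sham and within I/R, and I/R 1 lay within the rapamycin range, with -2.38 ± 1.05 (SE, with adjusted p = 0.329) for rapamycin against I/R and -2.68 for rapamycin against sham. Nupr1, a stress-induced chromatin protein, was at 1.03 for rapamycin against sham.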

How the data were processed

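Poly(A) RNA from 9 rat kidney libraries was sequenced in paired ends, per the labels' protocols. The authors deposited a table of raw read counts per gene (30454 genes) and a table of FPKM per gene (11235 genes, per the file headers with gene names). Tools listed by the submitters' processing notes, without roles, are HISAT2, StringTie, cutadapt and DESeq2, with Rnor_6.0 as the genome build. For the annotation, strand setting and reads of several places, the treatment was not given in the sources used here. RefSeq lists 121 pseudogene entries named for 33 of the 59 members, so reads of these genes are uncertain. The build of the deposited coordinates was not settled, and sequences are those of RefSeq for GRCr8.

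Counts were tested with edgeR 4.0.16 in R 4.3.3 by its quasi-likelihood test (TMM scaling, the default filterByExpr, robust dispersions), all 9 libraries in one fit and Benjamini-Hochberg adjustment over 17335 genes, called at an adjusted p under 0.05. Standard errors were taken as log2 fold change over the root of F. CPM values use TMM-scaled library sizes. DESeq2 1.42.0 and limma 3.58.1 on log2(FPKM + 1) were alternatives, with other scalings, filters and fits and each library left out. Ratios of paralogs were compared by exact permutation. Transcript length was implied by counts and FPKM, and its trend over all genes was removed by loess as an alternative. The main fit was tried on simulated data for I/R against sham. It recovered 12 of 50 genes changed 1.5-fold, 69 of 100 changed 2-fold and 45 of 50 changed 4-fold. Of its 132 calls, 6 were unchanged genes. No columns were left unmapped. Pairs of libraries of a group differed by a chi-square of 35.4 to 140.4 per degree of freedom, so none was treated as a copy.

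The members and lists were chosen with earlier results of these data known. Values in every library are given for the 6 members of smallest p in each comparison, the 6 of highest mean FPKM, named paralog pairs, the 4 eIF2 kinases and Eef2k, and each other list names its 2 genes of smallest p in each comparison. Eif1a, which the list of roles did not hold, was placed with the start codon genes after the values were seen. Correlations between libraries were taken on log2 CPM after the group mean of each gene was subtracted. Same-numbered libraries of different groups correlated between -0.21 and 0.14, over 0.1 in 2 of 9 pairs, and were not treated as pairs. I/R 1 and sham 3, of different numbers, correlated at 0.23.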

Additional observations from a re-analysis of the deposited data

How the results depend on the processing

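Apart from DESeq2, no alternative called a member: 0 were called under any scaling, filter, left-out library, limma fit or replicate block. DESeq2 called 2 members in I/R against sham, 1 in rapamycin against I/R and 2 in rapamycin against sham. The members' median log2 fold change, -0.10, 0.10 and -0.01 in these comparisons, ran from -0.12 to -0.06, 0.04 to 0.15 and -0.06 to 0.02 when each library was left out. It was -0.07, 0.03 and -0.05 with limma on log2(FPKM + 1), where 26 of 59 members in place of 18 were below 0 for rapamycin against I/R, and -0.04, 0.04 and -0.00 without I/R 1 and sham 3. The number of genes called over the whole table moved far more, from 10, 22 and 27 in the same order. Other scalings and filters on low counts gave 9 to 13, 21 to 27 and 23 to 28. DESeq2 called 234, 693 and 568, the replicate block, whose numbers do not pair the libraries and under which 2 of 9 libraries correlated best with their own number, 1, 1 and 7, and a threshold of 0.01 left 0, 0 and 4. The genes of the FPKM table alone gave 17 and 14 in the first pair of comparisons, and fits of the 6 libraries compared gave 2 and 6. limma on log2(FPKM + 1) gave 22 and 12 there, with a pseudocount of 0.1 it gave 25 and 11, and with a mean of at least 5 FPKM it gave 16, 9 and 14 in all 3. For these counts of genes, leaving out 1 library gave 0 to 36, 0 to 47 and 3 to 47. The counts were highest without I/R 1, and were 0 without I/R 3 or sham 2 in I/R against sham and without rapamycin 1, rapamycin 2 or sham 1 in rapamycin against I/R. In rapamycin against sham the count of 3 was without rapamycin 1. Without I/R 1 and sham 3 together, a choice made with earlier results known, 67, 128 and 104 genes were called, 0 of them members. The cause of these shifts was not tested. Role medians, paralog ratios and counts at an unadjusted p were put through the same alternatives after the data were seen. At 3 libraries a group, differences near the members' median could not be told from the spread between libraries.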
